A study of Mus musculus with 6 samples.

Results

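The cells described here carried the RNA of early S phase, the time when a cell starts to copy its DNA, and held no molecule of Lgr5, the R-spondin receptor that marks crypt base intestinal stem cells (ISCs). A cell was taken when it had at least 1000 genes and under 20% mitochondrial UMIs (unique molecular identifiers, 1 per captured RNA molecule), no Lgr5 UMI, at least 10 UMIs per 10000 from Mcm3, Mcm4, Mcm5, Mcm6, Hells, Dtl, Cdc6 and Ung together, and under 5 per 10000 from Ube2c, Ccnb1, Cdc20, Cenpf and Cenpa together. Of the 87954 cells kept in the series, 2885 met this rule. The levels of these 14 genes therefore chose the cells and are given below as a description.

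The data were single-cell RNA-seq of mouse small intestinal organoids on day 3 in ENR medium. WT organoids received the DMSO vehicle (-EIPA, 2 libraries) or 5 µM EIPA (+EIPA, 2 libraries), an amiloride derivative that inhibits sodium-proton exchange at the cell membrane, and the 2 replicates of each were separate preparations. Organoids from WT stock that carried a lentiviral, doxycycline-inducible Cas9-EGFP and a guide RNA were grown without Dox (-Dox, 1 library) or with 2 µg/mL Dox (+Dox, 1 library) and were established as puromycin-resistant single clones, while the WT organoids held no such vector. Cells were sorted as live, and in +Dox as live and GFP-positive, so that the sort cannot be told apart from Dox. The WT stocks came from mice of 10 weeks.

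In an intestinal crypt, progeny of the stem cells divide quickly for a few rounds as progenitors before they become absorptive enterocytes or secretory Paneth, Goblet, enteroendocrine and tuft cells. At the end of G1, origins of replication are licensed by ORC, CDC6 and CDT1, which load the MCM2-7 helicase, and cyclin E with CDK2 then starts synthesis. E2F transcription factors switch on most of these genes together, while genes of G2 and mitosis peak later, many of them through a CHR element and CCAAT boxes.

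Promoters of genes that define the cells are shown first, because most of the S genes searched share an E2F-type motif there and most G2/M genes a CHR. An E2F-type motif was searched as TTTGGCGC, TTTCCCGC, TTTCGCGC or TTTGCCGC and a CHR as TTTGAA, on both strands, in the 250 bases before and 50 after each RefSeq start (GRCm38.p6). Stretches of 60 bases outside annotated exons are printed 5′ to 3′ on the gene's strand, with the match in capitals. In Mcm5 the capitals hold 2 overlapping matches on opposite strands, and in Cdc6 the match lies on the opposite strand. Uhrf1, which is no gene of the rule and keeps DNA methylation at the fork, is shown from the second of its 2 starts.
Mcm5, chr8:75109334-75109393, plus strand: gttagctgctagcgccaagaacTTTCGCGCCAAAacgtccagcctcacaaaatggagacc
Mcm6, chr1:128359719-128359778, minus strand: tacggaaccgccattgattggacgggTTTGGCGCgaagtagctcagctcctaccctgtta
Dtl, chr1:191575545-191575604, minus strand: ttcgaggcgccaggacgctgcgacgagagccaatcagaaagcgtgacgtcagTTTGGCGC
Cdc6, chr11:98907987-98908046, plus strand: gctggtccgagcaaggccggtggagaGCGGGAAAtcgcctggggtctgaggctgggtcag
Uhrf1, chr17:56304102-56304161, plus strand: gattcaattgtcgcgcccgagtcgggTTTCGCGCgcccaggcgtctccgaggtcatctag
Cdc20, chr4:118437353-118437412, minus strand: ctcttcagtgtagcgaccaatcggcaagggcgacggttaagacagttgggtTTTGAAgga

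An E2F-type match was present in at least 1 promoter window of 704 of the 27025 genes of the table (2.6%), which hold 32851 windows. Of the S genes of the rule, 7 of 8 were in the table, and 6 of the 7 held a match, Ung being the exception. Of the 5 G2/M genes of the rule, 0 held an E2F-type match and 4 held a CHR, against 20.2% of all genes with a CHR. CCAAT was found for all 5 of these genes and for 41.1% of all genes. Among further genes, the E2F-type match was found for 8 of 18 origin licensing and firing genes, 7 of 26 fork and DNA synthesis genes, 11 of 28 G1/S control genes and 0 of 20 nucleotide supply genes. In lists of other roles it was found for 3 of 22 acid-base transport, 3 of 22 crypt stem cell, 2 of 16 secretory progenitor and 0 of 31 absorptive genes. These matches describe the letters of the windows, and binding was not measured.

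The S genes of the rule were detected in most of the cells, as the rule sets, and this is no test of the label. Hells, a chromatin remodeler, was detected in 93.3-98.3% of them per library, Mcm3 in 86.3-92.4% and Mcm6 in 85.5-93.0%, both helicase subunits, against 15.9-29.8%, 12.1-24.2% and 17.6-28.4% of the Lgr5-negative cells low in both scores. Olfm4, a crypt base gene, was detected in 82.6-92.6% of the early S cells, but also in 58.4-81.2% of the cells low in both scores and 74.7-91.9% of the G2/M cells, so that its detection does not set the cells apart. Cells that met the same limits but held an Lgr5 UMI had a median of 2 such UMIs in every library, and a cell without one can still express the gene. Atoh1, which drives the secretory lineage, was detected in 1.5-11.4%, Neurog3 of the enteroendocrine lineage in 0.2-1.2%, and the median cell of each library held 0 immune and stromal marker UMIs.

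Cells with at least 100 mature enterocyte marker UMIs per 10000 should not replicate their DNA. They met the S and G2/M limits in 0-0.423% of cases per library (0 of 1272, exact upper bound 0.290%, in -EIPA replicate 2), at median depths of 11320.5-17029.5 UMIs. Cells high in Paneth markers met these limits in 0.483-2.35% of cases, those high in Goblet markers in 0.949-1.97% and those with at least 10 tuft marker UMIs per 10000 in 0.505-2.55%, at median depths of 6712-13302.5 UMIs, so that the share depends on the cell type. Free RNA, doublets and dividing cells cannot be told apart in such shares. These counts include cells with an Lgr5 UMI, which the early S shares given below leave out. The cells that met the limits and held no Lgr5 UMI were 0.129-1.24% of all cells high in Paneth markers. They were 0.440-1.34% of those high in Goblet markers and 0.277-1.70% of those high in tuft markers. The median depth of the early S cells was 12799.5 and 12749 UMIs in -EIPA, 11792 and 14578 in +EIPA, 12905 in -Dox and 16722.5 in +Dox. All kept cells held between 161670015 and 239368573 UMIs per library. Pairs of libraries shared 33-78 cell barcodes, at most 0.563% of the smaller library.

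Near the limit of the rule, 880 cells without an Lgr5 UMI had 9 to 10 S UMIs per 10000 and 681 had 10 to 11, while 587 had 15 or more. Pooled over libraries, Pcna, the sliding clamp of the fork, stood at 278.7 CPM just outside and 289.8 just inside, and at 339 in the cells with 15 or more. CPM here are a gene's summed UMIs scaled to a total of 1000000 UMIs of the same cells. Ccne2, cyclin E2, stood at 53.2, 59.6 and 82.8 CPM in the same bins, and Cdkn1a, a CDK inhibitor, at 65.9, 64.3 and 51.9. At the other limit 162 cells had 4 to 5 G2/M UMIs per 10000 and 105 had 5 to 6, with Mki67 at 290.4 and 352 CPM.

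The early S cells were a smaller share of the cells in both +EIPA libraries than in both -EIPA libraries. They were 478 of 12606 cells (3.79%, 95% exact binomial interval 3.47-4.14) and 747 of 18211 (4.10%, 3.82-4.40) in -EIPA replicates 1 and 2. In +EIPA they were 429 of 13194 (3.25%, 2.96-3.57) and 302 of 14262 (2.12%, 1.89-2.37). The groups did not overlap. The mean was 3.95% ± 0.219 in -EIPA and 2.68% ± 0.802 in +EIPA (SD, n = 2), and the exact two-sided permutation test over libraries gave p = 0.333, the smallest value that 2 against 2 allows, so that no difference could be called. The ratio was 0.857 within replicate 1 and 0.516 within replicate 2. The intervals cover counting error only.

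The same order was found after every cell was thinned to 5000 UMIs, which left out 690-2497 cells per library. The rule was applied anew to the thinned counts, so that partly other cells met it and the shares grew. A cell whose Lgr5 UMIs were lost by thinning could then count as a member. The thinned shares were 7.57% and 7.95% in -EIPA and 6.46% and 5.23% in +EIPA, a ratio of means of 0.753. At 2000 UMIs they were 8.77% and 9.19% in -EIPA and 8.15% and 7.19% in +EIPA, with ratios of 0.930 in replicate 1 and 0.782 in replicate 2. With cells that held an Lgr5 UMI added, the ratio of means was 0.773 with all UMIs and 0.764 after thinning to 5000 UMIs. Lgr5-negative cells in G2/M (under 10 S and at least 5 G2/M UMIs per 10000) were 16.1% of cells in -EIPA and 12.8% in +EIPA. Measured against early S and G2/M cells together, the early S share was 19.7% in -EIPA and 17.2% in +EIPA, with within-replicate ratios of 1.02 and 0.724 and an exact permutation p of 0.667.

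In the CRISPR organoids, 753 of 17598 cells were in early S without Dox (4.28%) and 176 of 12083 with Dox (1.46%). After thinning to 5000 UMIs the shares were 8.47% and 4.50%, and after thinning to 2000 they were 9.42% and 6.43%. The ratio of +Dox to -Dox was thus 0.340 with all UMIs and 0.532 and 0.682 after thinning, which also changed the cells that met the rule. With cells that held an Lgr5 UMI added, it was 0.522 with all UMIs and 0.570 after thinning to 5000 UMIs. There was 1 library of each and hence no test, and the +Dox cells had also been chosen by GFP.

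**Figure D1:**
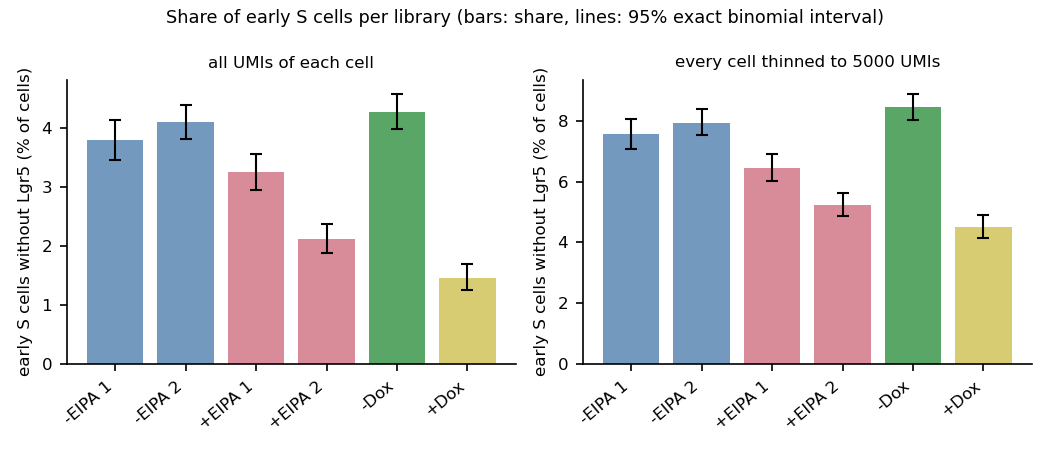
Share of early S cells without an Lgr5 UMI among the kept cells of each library (y axis, percent; bars) with 95% exact binomial intervals (lines), with all UMIs (left) and after thinning to 5000 UMIs per cell (right). The -EIPA bars stand at 3.79% and 4.10% and the +EIPA bars at 3.25% and 2.12%, with the same order after thinning.

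Genes that the rule did not use gave the cells a broad replication program, which is described without a test because the cells were chosen by their S genes. The 15 genes with the largest median ratio over all other kept cells (20 CPM added to both sides) were Slfn9, Uhrf1, Ccne2, Clspn, Atad2, Rrm2, Ccne1, Rfc3, Lig1, Orc6, Mcm7, Pcna, Casp8ap2, Rpa2 and Nasp, with median log2 ratios from 1.48 to 1.04. These include both E-type cyclins, a subunit of the origin recognition complex (Orc6), a further subunit of the helicase (Mcm7), the clamp (Pcna) and a subunit of its loader (Rfc3), the ligase of the lagging strand (Lig1), a subunit of ribonucleotide reductase (Rrm2), the checkpoint adaptor claspin (Clspn) and the histone chaperone Nasp. Of the 13 of them in the promoter table, 6 held an E2F-type match.

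By role, the origin licensing and firing genes were higher than in the Lgr5-negative G2/M cells in all 6 libraries for 19 of 22 genes, with a median log2 ratio of 0.45 for CPM. Cdt1, the loading factor of the helicase, ran from 52.9 to 69.7 CPM over the libraries (median 60.6) against 11.9-17.8 in G2/M cells. Mcm2 ran from 54.2 to 69.6 CPM against 16.4-20.7. Gmnn, geminin, the inhibitor of CDT1, ran from 180.9 to 215.7 CPM against 105.9-125.3, so that the loading factor and its inhibitor were both higher in the early S cells, with no overlap of libraries.

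The fork and DNA synthesis genes were higher for 32 of 33 genes (median log2 ratio 0.73) and the nucleotide supply genes for 18 of 21 (0.40). Clspn ran from 99.95 to 112.1 CPM in the early S cells against 27.0-38.2 in G2/M cells. Tyms and Tk1, which make thymidine nucleotides, differed less, with medians of 145.9 against 122.7 CPM and 81.0 against 67.0 CPM. Over all 7392 genes with a mean of 10 CPM, the median log2 ratio was 0.01, with 2068 genes higher and 1587 lower in all 6 libraries.

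Of the G1/S control genes, 25 of 32 were higher and 4 lower in all 6 libraries. Ccne2 ran from 60.2 to 82.7 CPM against 6.0-11.7 in G2/M cells, and E2f1 from 30.1 to 41.4 against 5.2-7.8, again with no overlap. Cdkn1a ran from 51.7 to 103.1 CPM in early S cells, 66.5 to 188.2 in G2/M cells and 178.8 to 603.1 in the cells low in both scores. The other G2 and mitosis genes were lower in all 6 libraries for 37 of 37 genes (median log2 ratio -1.08). They were not absent, since Top2a ran from 203.8 to 256.3 CPM in early S cells against 345.7-473.4 in G2/M cells and 34.7-69.4 in cells low in both scores.

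Replication-dependent histones, whose RNA is made in S phase and mostly lacks a poly(A) tail, varied widely between the cells and were lower than in G2/M cells. Per cell, their sum had a median of 6.5-10.9 UMIs per 10000 over the libraries, with a 10th percentile of 2.3-3.0 and a 90th of 38.9-50.2. The G2/M cells spread as widely, with medians of 11.99-16.5, a 10th percentile of 2.1-2.9 and a 90th of 48.4-73.7. In the summed counts 16 of 22 were lower than in the G2/M cells in all 6 libraries (median log2 ratio -0.30).

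Between early S cells with and without an Lgr5 UMI the median ratios were near 0 for replication genes and away from it for crypt and absorptive genes, given as a description. The median log2 ratio of cells without over cells with an Lgr5 UMI was -0.03 for origin genes, -0.03 for fork genes and -0.05 for nucleotide supply genes, beside -0.00 over all genes. Crypt stem cell genes other than Lgr5 were lower in all 6 libraries for 19 of 24 genes (median -0.39), beside 1067 of all 7392 genes lower and 1123 higher in all 6 libraries. Olfm4 ran from 1051.4 to 1654.4 CPM without an Lgr5 UMI and from 2874.2 to 4732.1 with one. Ascl2, a transcription factor of stem cells, had medians of 25.5 and 51.8 CPM, and Axin2, a WNT target, 64.7 and 111.5. Absorptive genes were higher for 12 of 26 genes and lower for 0 (median 0.21), to be read beside the same 1123 and 1067 genes. S100a6 and Dmbt1 led the difference, with median log2 ratios of 1.21 and 1.14. S100a6 differed widely between libraries, from 104.3 CPM in -Dox to 2460.7 in +EIPA replicate 2.

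**Figure D2:**
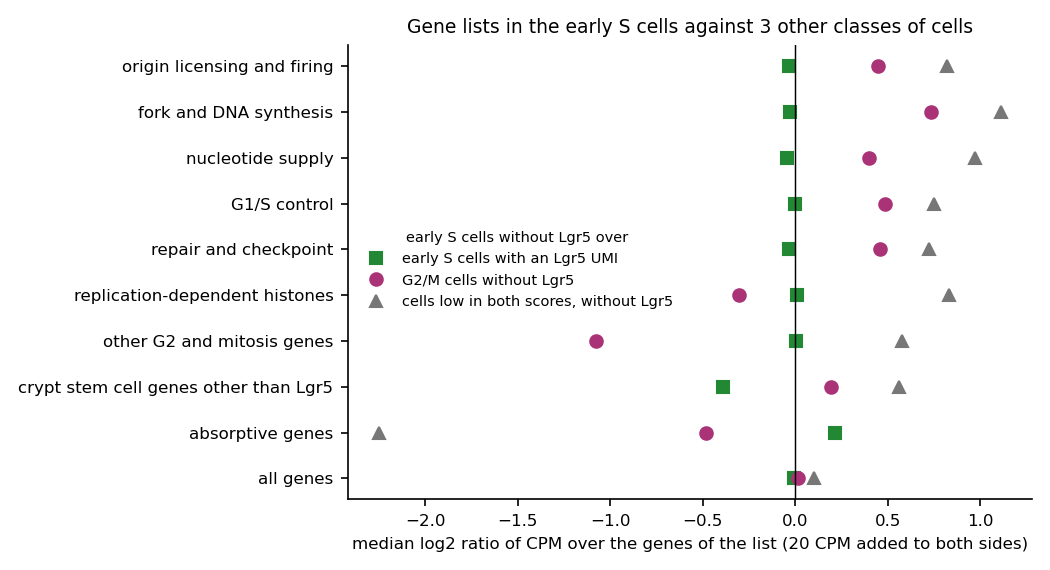
Median log2 ratio of CPM (x axis, 20 CPM added to both sides, medians over 6 libraries and then over genes) of each gene list (y axis) in the early S cells without Lgr5 over 3 other classes of cells. The origin, fork, nucleotide supply, G1/S and repair lists lie right of 0 against G2/M cells (circles; 0.73 for fork genes) and against cells low in both scores (triangles; 1.11), and near 0 against early S cells with an Lgr5 UMI (squares), while crypt stem cell genes lie at -0.39 against the latter. Replication-dependent histones lie at -0.30 against G2/M cells.

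With EIPA, 3 genes passed the test in the early S cells, Guca2b higher and Atf3 and Hbegf lower. Counts were summed per library over the early S cells and tested by quasi-likelihood in edgeR, with 2 libraries on each side and Benjamini-Hochberg adjustment over 10555 genes. Adjusted p was under 0.05 for 3 genes (0.0284%), of which 1 was higher (0.00947%) and 2 were lower (0.0189%), and 498 genes had an unadjusted p under 0.05. DESeq2 called 19 genes (0.18%), 8 higher (0.0756%) and 11 lower (0.104%), these 3 among them. With the experiment as a replicate block edgeR called 432 genes (4.09%), 271 higher (2.57%) and 161 lower (1.53%), again with these 3. The first fit left out the pairing of replicates by experiment, which the block takes in. With 2 libraries per group, the p-values of the block rest mostly on a spread pooled across genes. Passing with the block therefore does not show that a gene moved the same way in both replicates.

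Guca2b, which encodes the intestinal peptide uroguanylin, rose from 15.2 and 13.3 CPM to 44.8 and 49.1 CPM (log2 fold change 1.78, SE 0.14, edgeR adjusted p = 0.0287). Atf3, a stress-induced transcription factor of the ATF family, fell from 31.1 and 44.1 CPM to 5.55 and 5.80 CPM (-2.68, SE 0.23, edgeR adjusted p = 0.0287). Hbegf, a ligand of the EGF receptor, fell from 101 and 115 CPM to 33.3 and 39.0 CPM (-1.52, SE 0.13, edgeR adjusted p = 0.0287). In each gene the libraries of the groups did not overlap, as was so for 10.3% of all genes tested in the higher and 25.4% in the lower direction. All 3 moved the same way in Lgr5-positive early S and Lgr5-negative G2/M cells, where edgeR called 0 genes. Log2 fold changes there were 1.16 and 1.95 for Guca2b, -3.34 and -1.59 for Atf3 and -1.30 and -1.30 for Hbegf. The edgeR adjusted p was 0.0508 and 0.0538 for Hbegf, and 0.9996 and 0.0538 for Guca2b. The change in G2/M cells was called different for Atf3, but not for Guca2b (difference -0.18) or Hbegf (-0.24).

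The 3 calls in the early S cells rested on few degrees of freedom. All 3 were lost without -EIPA replicate 2 (edgeR adjusted p = 0.210 for each), with Lgr5-positive cells added, with a limit of 15 S UMIs, and with the highest doublet scores removed (0.0534 for each). Without -EIPA replicate 1 Atf3 remained (0.0278), while Guca2b and Hbegf were lost (0.0798). Over the settings tried, adjusted p reached 0.983 for Guca2b, 0.545 for Atf3 and 0.210 for Hbegf, with the direction kept in each.

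Atf3 belongs to the AP-1 and immediate early genes, which are induced within minutes by growth factors or stress. Of 19 such genes tested 1 was called lower, beside 0.0189% of all genes. At an unadjusted p under 0.05, 0 were higher and 14 lower, beside 2.40% and 2.32% of all genes. The median log2 fold change of the list was -0.73, beside 0.00 over all genes tested. With the replicate block 15 of 19 were lower and 1 higher, beside 1.53% and 2.57% of all genes. Their summed level was 1665 and 1922 CPM in -EIPA and 1024 and 999 CPM in +EIPA. Fos stood at 264 and 370 CPM in -EIPA and 71.3 and 108 CPM in +EIPA (log2 fold change -1.76, edgeR adjusted p = 0.136). Jun stood at 258 and 305 CPM against 145 and 131 (-0.98, 0.116), Fosb at 29.5 and 26.2 against 4.72 and 1.34 (-3.10, 0.109), and Egr1 at 110 and 152 against 59.4 and 60.7 (-1.07, 0.204). Each of the 4 passed with the block and in DESeq2.

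Further genes of small unadjusted p were not called. Pdgfa, a platelet-derived growth factor, stood at 259 and 255 CPM in -EIPA and 138 and 132 CPM in +EIPA (log2 fold change -0.87, edgeR adjusted p = 0.0840). Edn1, endothelin 1, stood at 41.1 and 57.8 against 11.3 and 15.8 (-1.82, 0.118). Both passed with the block and in DESeq2. Ccn1, a matrix protein, stood at 25.3 and 30.3 against 9.86 and 12.7 (-1.25, 0.177), and passed with the block only. Areg, like Hbegf a ligand of the EGF receptor, stood at 15.1 and 26.7 CPM in -EIPA and 21.8 and 82.1 CPM in +EIPA. Its libraries overlapped, but it was higher within both replicates and passed with the block, though not in DESeq2. Klf6, Insig1 and Sult1d1 had log2 fold changes of -0.88, -0.68 and -0.85 (edgeR adjusted p = 0.168, 0.168 and 0.136), and passed with the block and in DESeq2.

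Of 29 ATF4 targets and serine synthesis genes tested, 0 were called, and 17 were higher and 0 lower at an unadjusted p under 0.05, beside 2.40% of all genes higher (median log2 fold change 0.40). With the block 18 were called higher, beside 2.57% of all genes. Psph, the last enzyme of serine synthesis, stood at 44.1 and 37.6 CPM in -EIPA and 94.1 and 66.3 CPM in +EIPA (1.03, edgeR adjusted p = 0.306). Psat1, the enzyme before it, stood at 60.9 and 54.4 against 112 and 82.6 (0.81, 0.422), and Mthfd2, of mitochondrial one-carbon metabolism, at 62.3 and 48.2 against 94.7 and 82.3 (0.74, 0.453). The cystine carrier Slc7a11 stood at 10.4 and 12.2 against 20.9 and 20.3 (0.91, 0.366). Psph and Psat1 also passed in DESeq2, and all 4 passed with the block.

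Of 35 absorptive genes tested (median log2 fold change 0.23) 1, Guca2b, was called higher, beside 0.00947% of all genes. At an unadjusted p under 0.05, 11 were higher and 2 lower, beside 2.40% and 2.32% of all genes. With the block 13 were higher and 2 lower, beside 2.57% and 1.53%. Apoa1, an apolipoprotein of enterocytes, stood at 36.1 and 24.9 CPM in -EIPA and 110 and 82.1 CPM in +EIPA (1.72, edgeR adjusted p = 0.109). Apoc3 stood at 7.62 and 3.77 against 20.3 and 18.5 (1.88, 0.257), and Gsta1, a glutathione transferase, at 96.6 and 88.2 against 134 and 172 (0.78, 0.375). All 3 passed in DESeq2 and with the block. The 10th percentile of mature enterocyte markers, a list with Apoa1 but without Guca2b, was also higher with EIPA. It was 2.49 and 1.94 UMIs per 10000 in the early S cells of -EIPA and 2.95 and 2.82 in those of +EIPA. In Lgr5-positive early S cells it was 2.14 and 1.49 against 2.94 and 3.00, and in Lgr5-negative cells low in both scores 3.71 and 2.44 against 5.12 and 4.68. The part of this level in the values of these genes was not tested.

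Summed Paneth and Goblet markers were highest in +EIPA replicate 2, and the groups overlapped in both sums. The libraries lay in the same order in the 10th percentile of Paneth markers over cells, which was 3.29 and 9.86 UMIs per 10000 in the early S cells of -EIPA replicates 1 and 2 and 3.93 and 14.5 in those of +EIPA. It was 2.96 and 9.28 against 3.74 and 13.5 in Lgr5-negative G2/M cells, and 3.06 and 10.4 against 3.91 and 14.9 in those low in both scores. The part of this level in the sums was not tested. Summed Paneth markers were 1172 and 2461 CPM in -EIPA and 1240 and 5203 CPM in +EIPA, and Goblet markers 890 and 1463 against 1160 and 3012. Of 12 tested genes in each list 0 were called, while 8 and 11 were higher with the block, beside 2.57% of all genes. Summed enteroendocrine markers were 198 and 311 CPM in -EIPA and 242 and 238 CPM in +EIPA. With 0 of 14 called, 3 were higher and 4 lower with the block, beside 2.57% and 1.53% of all genes. Chga stood at 9.77 and 18.6 against 7.60 and 7.36 CPM and Chgb at 83.0 and 87.3 against 69.4 and 11.2. Reg4 stood at 28.2 and 51.1 against 35.7 and 121 CPM and Ghrl at 5.47 and 11.3 against 34.3 and 3.57. All 4 passed with the block, although Ghrl was higher with EIPA in replicate 1 and lower in replicate 2. Cells with at least 500 Paneth marker UMIs per 10000 were 0.418% and 0.669% of the early S cells in -EIPA and 0.233% and 2.32% in +EIPA. Those with at least 200 Goblet marker UMIs were 0.837% and 1.07% against 1.40% and 3.97%. Without all such cells the same 3 genes were called.

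The origin, fork and repair genes gave no call, which in lists of this size is also what the 0.0284% of all genes called would give. Of 22 origin, 33 fork and 28 repair genes, 0 were called, 0 had an unadjusted p under 0.05 and 0 passed with the block, with median log2 fold changes of 0.03, -0.00 and 0.07. Of all 10555 genes, 498 had an unadjusted p under 0.05 and 4.09% passed with the block. The cells of every library were chosen by their S genes, and a replication gene such as Pcna rose with that score. These counts therefore cannot show that replication genes did not respond. The fork genes ranged from -0.28 to 0.17, and their sum was 2996 and 2946 CPM in -EIPA and 2877 and 2846 in +EIPA. The summed S genes of the rule stood at 1305 and 1278 CPM against 1290 and 1266, values that the rule itself holds up. Pcna stood at 296 and 314 CPM in -EIPA and 278 and 311 in +EIPA, and Ccne2 at 63.6 and 62.4 against 60.2 and 64.5, with overlapping libraries in both.

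The lists that follow stand beside 0.0284% of all genes called, and 2.57% higher and 1.53% lower with the block. In the nucleotide supply list, of 21 genes 0 were called and 2 were higher with the block, Mthfd2 and Shmt2 (log2 fold change 0.40), both of folate metabolism. Of 35 G1/S control genes 0 were called and 3 were higher with the block, among them Cdk6, a kinase partner of D cyclins (0.43, edgeR adjusted p = 0.799). Of 40 other G2 and mitosis genes 0 were called and 1 was lower with the block, Cdca3 (-0.36, 0.988). Of 27 histones 0 were called and 2 were higher with the block, among them Hist1h4d (0.41, 0.966). Since genes with log2 fold changes as large as that of Fosb (-3.10) were not called, the absence of a call does not show that a gene did not change.

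The crypt stem cell genes gave 0 calls among 26, as the 0.0284% of all genes called would give, with 6 higher and 3 lower at an unadjusted p under 0.05, beside 2.40% and 2.32% of all genes. Smoc2 stood at 150 and 150 CPM in -EIPA and 116 and 106 CPM in +EIPA (-0.38, edgeR adjusted p = 0.749), and Cd44 at 28.5 and 30.9 against 46.0 and 36.4 (0.52, 0.772), and both passed with the block. Of 18 p53 targets 0 were called. Bax, which promotes apoptosis, stood at 208 and 215 against 259 and 269 CPM (0.38, 0.749), and Pmaip1, another such gene, at 22.5 and 24.8 against 12.7 and 14.3 (-0.76, 0.472). These 2 lay in opposite directions, and both passed with the block.

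Of 19 acid-base transport genes 0 were called, as the 0.0284% of all genes called would give. Slc26a3, a chloride-bicarbonate exchanger, stood at 27.7 and 20.6 against 12.7 and 11.4 CPM (-0.93, edgeR adjusted p = 0.472), and Car8, a carbonic anhydrase-related protein, at 40.4 and 36.9 against 52.8 and 47.5 (0.43, 0.750). Both passed with the block.

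**Figure D3:**
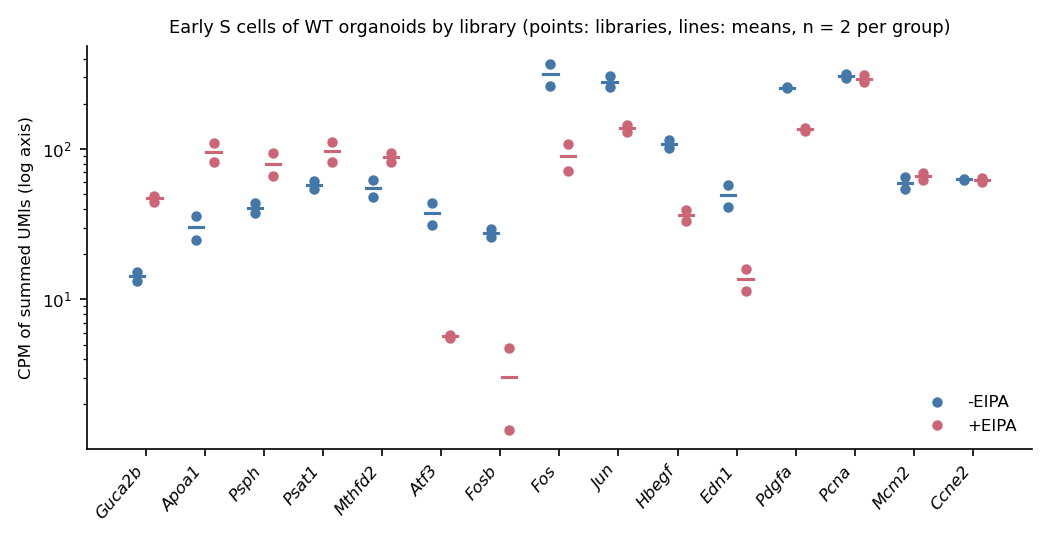
Summed UMIs of the early S cells in CPM (log y axis) for 15 named genes in the -EIPA (blue) and +EIPA (red) libraries, with points for libraries and lines for group means (n = 2). The groups are apart for Guca2b (13.3-15.2 against 44.8-49.1), Atf3 and Hbegf, and lie together for Pcna, Mcm2 and Ccne2.

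No gene was shown to respond differently in early S cells with and without an Lgr5 UMI. In a fit of both sums per library with a class by treatment term, edgeR called 0 of 11268 genes, with 579 at an unadjusted p under 0.05, and DESeq2 called 0, with 27 at an unadjusted p under 0.05. The count was 5 without -EIPA replicate 1, 77 without +EIPA replicate 1 and 21 without +EIPA replicate 2. With the replicate block 49 were called, 25 with a more positive and 24 with a more negative change in the cells without Lgr5. Olfm4 is among them (difference 0.43 on the log2 scale, edgeR adjusted p = 0.219 without the block). It stood at 1051 and 1200 CPM in -EIPA and 1487 and 1216 in +EIPA without an Lgr5 UMI, and at 2874 and 3970 against 2947 and 3085 with one. The difference for Fos was -0.28 (edgeR adjusted p = 0.641, and 0.0324 with the block) and that for Atf3 was 0.66 (0.938 and 0.666).

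Compared with Lgr5-negative G2/M cells, 91 of 12330 genes differed in their change with EIPA by the same test, 10 with a more positive (0.0811%) and 81 with a more negative (0.657%) change in the early S cells. These small p-values rest on a spread pooled across genes, since each group has 2 libraries. Of 38 absorptive genes 16 were more negative and 0 more positive in early S (median difference -0.53), while DESeq2 called 6 of 38. Of 33 fork genes 0 differed, but limits on the S genes set both classes. Fabp1, the fatty acid binding protein of enterocytes, stood at 274 and 217 CPM in -EIPA and 287 and 266 CPM in +EIPA in early S cells, and at 689 and 525 against 1459 and 1269 in G2/M cells (difference -1.01, SE 0.05, edgeR adjusted p = 5.39e-19). Rbp2, a retinol binding protein, stood at 123 and 99.7 against 112 and 96.8 in early S and at 273 and 242 against 492 and 416 in G2/M (difference -0.92). For both genes the groups did not overlap in the G2/M cells and overlapped in the early S cells. Within both replicates Fabp1 was nevertheless higher with EIPA in the early S cells (edgeR adjusted p = 0.0153 with the block).

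Cells with much enterocyte RNA were a larger part of the G2/M cells in +EIPA than in -EIPA, and their part in this difference was not tested. The 2 classes also lay at unlike distances from their limits. In the WT libraries the early S cells had median S UMIs of 12.1-12.6 per 10000, against a limit of 10. The G2/M cells had median G2/M UMIs of 10.6-11.5, against a limit of 5. Cells with at least 100 mature enterocyte marker UMIs per 10000 were 2.43% and 1.07% of the G2/M cells in -EIPA and 5.96% and 5.21% in +EIPA, but 1.26% and 0% of the early S cells in -EIPA (0 of 747, exact upper bound 0.493%) and 0.233% and 0% in +EIPA (0 of 302, 1.21%). With such cells left out of both classes 10 genes differed and 0 of 38 absorptive genes did (median difference -0.04), an alternative that removes cells by some of the genes tested. Fabp1 then differed by 0.15 and Rbp2 by 0.022. Rbp2 is no marker of that list, but as an absorptive gene it is not independent of the removal. The highest doublet scores were held by 10.4-13.3% of the G2/M cells and 3.97-7.32% of the early S cells of the WT libraries, and without them 22 genes differed, 5 of 38 absorptive genes among them (median difference -0.30). Without -EIPA replicate 2 the count was 43 and without +EIPA replicate 2 it was 143.

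**Figure D4:**
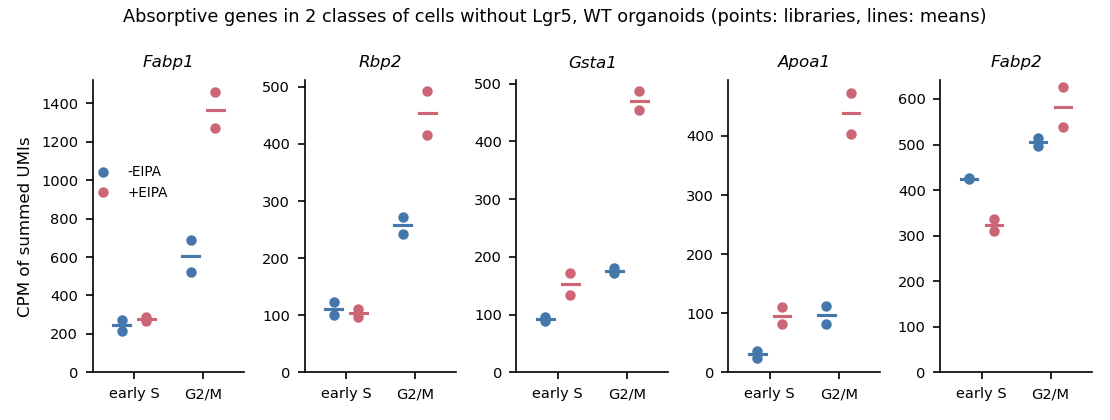
CPM (y axis, each panel with its own scale from 0) of 5 absorptive genes in the early S and G2/M cells without an Lgr5 UMI of the -EIPA (blue) and +EIPA (red) libraries, with points for libraries and lines for means. Fabp1 reads 217-287 CPM in early S cells and 525-1459 in G2/M cells.

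In the CRISPR organoids the early S cells of +Dox held more Paneth and Goblet RNA than those of -Dox. Of 3034 genes with at least 50 CPM in the higher library and more than 3 UMIs in each, 32 were 2-fold or more higher (1.05%) and 7 lower (0.231%) with Dox. At a limit of 15 S UMIs per 10000 the split was 66 higher and 48 lower. With 1 library each these are values without a replicate check, and the 95% exact Poisson intervals below cover counting error only. All 9 Paneth and all 8 Goblet genes that could be compared were past 2-fold higher. Lyz1, the Paneth cell lysozyme, stood at 265 CPM (255-275) in -Dox and 1970 CPM (1919-2021) in +Dox, and Muc2, the Goblet mucin, at 35.5 (31.8-39.5) and 195 (180-212). Cells high in Paneth markers were 0.797% of the -Dox and 11.4% of the +Dox early S cells, and cells high in Goblet markers 1.73% and 13.6%. The 10th percentile of Paneth markers was also higher with Dox in each of 4 classes, at 5.22 UMIs per 10000 in -Dox and 16.8 in +Dox early S cells, 5.77 and 16.6 in Lgr5-positive early S cells, 4.83 and 15.3 in Lgr5-negative G2/M cells and 5.07 and 15.2 in those low in both scores. The part of this level in the ratios was not tested.

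Without the cells high in Paneth or Goblet markers 16 genes were past 2-fold higher and 6 lower. The log2 ratio of Lyz1 went from 2.90 to 1.41, that of Ccl6 from 3.88 to 1.34 and that of Muc2 from 2.46 to 0.65, while that of Ang4, a Paneth ribonuclease, was 2.64 and 2.76. The lower genes moved little with that choice. Fos stood at 420 CPM (407-433) in -Dox and 154 CPM (140-169) in +Dox, a log2 ratio of -1.44 with all cells and -1.56 without those high in markers. Hbegf stood at 100.01 CPM (93.8-107) and 40.7 CPM (33.7-48.6), with log2 ratios of -1.30 and -1.23, and Atf3, which was under the limit of 50 CPM, at 32.1 and 6.44 CPM. Rbp7 and Dmbt1 had log2 ratios of -1.70 and -1.41 with all cells and -1.56 and -1.28 without those high in markers. The Dox and EIPA comparisons share no library.

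The fork and nucleotide supply lists held 0 genes past 2-fold with Dox, which in lists of this size is also what the 1.05% higher and 0.231% lower of all genes would give. Here too the cells of both libraries had been chosen by their S genes. The median log2 ratio was -0.03 over 22 fork genes and 0.05 over 16 nucleotide supply genes, beside -0.06 over all genes compared. Ccne2 stood at 82.7 and 75.6 CPM, Pcna at 325 and 338 CPM and Clspn at 106 and 102 CPM in -Dox and +Dox. Of 12 histones 10 had a negative ratio (median -0.31), and Hist1h2ap stood at 139 and 73.2 CPM. Slfn9 and Atad2 were lower in all 4 WT libraries (85.9-116 and 144-160 CPM) than in both CRISPR libraries (220-236 and 260-275 CPM), and the organoid line and its preparation cannot be told apart.

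**Figure D5:**
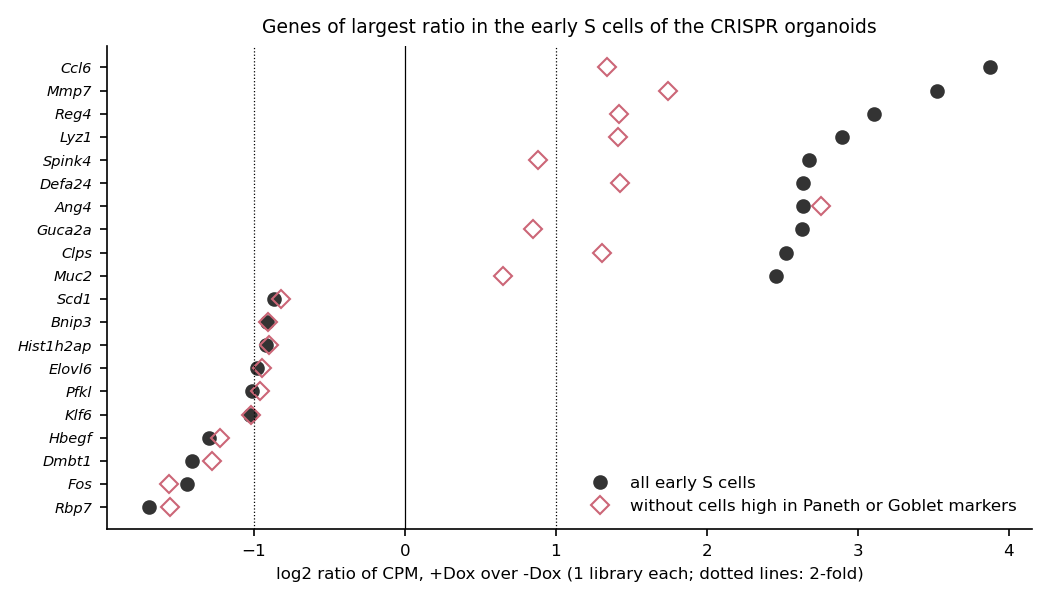
Log2 ratio of CPM, +Dox over -Dox (x axis, 1 library each), for the 10 genes of largest and the 10 of smallest ratio (y axis) in all early S cells (filled) and without cells high in Paneth or Goblet markers (open). Paneth and Goblet genes lie from 2.46 to 3.88 and mostly drop when those cells are left out, while Fos (-1.44 and -1.56) and Hbegf (-1.30 and -1.23) do not.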

How the data were processed

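The deposited values are raw UMI counts per gene and cell barcode, which the authors made with Cell Ranger 6.1.2 from 10x 3′ v3.1 libraries aligned to mm10 (GRCm38), in the barcodes called as cells, before any limit on cells, normalization or removal of doublets or free RNA. Kept cells were 57.0-84.4% of barcodes. The members, gene lists and tests were chosen with earlier results of these data known. Counts were summed per library and class in Python 3.11.15 with scipy 1.17.1 and tested by the quasi-likelihood F test of edgeR 4.0.16 under R 4.3.3, after TMM and filterByExpr, at a threshold of 0.05. SE is the log2 fold change over the square root of F. DESeq2 1.42.0, library size scaling, no filter, a replicate block, other limits on cells, thinning and left-out libraries were tried as alternatives. Doublet scores came from Scrublet in scanpy 1.11.5 at an expected rate of 0.12, and the top 10% per library were removed in an alternative. Replicate 1 is paired with replicate 1 and 2 with 2 as experiments in the study's source data, and the departures of libraries with 1 number from the means of their groups had a Pearson correlation of 0.485 across 10555 genes.

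Named genes were those called, otherwise up to 10 per direction of smallest unadjusted p at a mean of 20 CPM with libraries that do not overlap, up to 4 per list at 10 CPM and any list gene that a role needed, the 15 leading genes, up to 10 genes per difference between classes, and up to 10 per direction of largest ratio for Dox. Predicted genes were skipped. On simulated counts with a dispersion of 0.02 edgeR recovered 89% and 100% of log2 changes of 1 and 2 in the EIPA comparison (10555 genes), and 51% and 100% of differences between classes. The changed genes of the simulation were drawn from genes of higher counts, with the same dispersion for all genes and no effect of the experiment. These shares are therefore no measure of what could be detected in the data. Sequences came from the RefSeq promoter table of GRCm38.p6 and gene models from GENCODE. In a bulk sum of a class, fewer cells of a type and less RNA per cell cannot be told apart. Some genes, the target of the guide RNA among them, are not reported here.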

Additional observations from a re-analysis of the deposited data

Results flagged for a closer look

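The change with EIPA differed between the early S cells and the Lgr5-negative G2/M cells for 91 genes by edgeR's test of the difference. On the log2 scale the differences, early S minus G2/M, were -1.01 for Fabp1, -0.92 for Rbp2, -0.70 for Gsta1, -0.61 for Fabp2, -0.53 for Gstm1 and -0.52 for Apoa1. They were -1.75 for Chgb and -1.68 for Chga, granins of enteroendocrine cells, which stood at 83.0 and 87.3 CPM (Chgb) in -EIPA and 69.4 and 11.2 CPM in +EIPA in the early S cells. Of 23 enteroendocrine markers 4 were more negative and 2 more positive, beside 0.657% and 0.0811% of all genes. The latter were Ghrl (2.51) and Sst (4.18), named for their opposite direction. Ghrl was uneven, at 5.47 and 11.3 CPM in the -EIPA and 34.3 and 3.57 CPM in the +EIPA early S cells. With the highest doublet scores removed, of 20 markers 0 were more negative and 2 more positive, beside 17 and 5 of 12067 genes. The differences were -3.74 for Sprr1a and -3.92 for Afp, which were low and uneven between libraries (Afp at 42.6 and 1.44 CPM in the +EIPA G2/M cells). Atf3 differed by -1.08 and Olfm4 by 0.30, the latter with 1487 and 1216 CPM in +EIPA early S cells. DESeq2 did not call Fabp2 (adjusted p = 0.165) or Atf3 (adjusted p = 0.109), and gave no adjusted p for Sprr1a, Chga and Afp. Of the 12 genes named here, leaving out Ghrl and Sst, 5 lost their call with the highest doublet scores removed, namely Chgb, Chga, Gstm1, Apoa1 and Atf3. Without cells high in mature enterocyte markers 4 lost their call (Gsta1, Fabp2, Gstm1 and Atf3) and 3 reversed (Fabp1, Rbp2 and Apoa1).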

How the results depend on the processing

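Beside the 3 genes called with EIPA in the early S cells, the count was 19 with DESeq2, 183 without a filter on low counts, 432 with the replicate block, 6 after thinning to 5000 UMIs, 0 with the highest doublet scores removed and 0 with Lgr5-positive cells added, and it ran from 0 to 55 with 1 library left out (55 without +EIPA replicate 1 and 14 without +EIPA replicate 2). A limit of 15 S UMIs also gave 3 genes, of which 0 were shared. For the difference from Lgr5-positive early S cells the count was 1 with library sizes in place of TMM, 56 without a filter and 49 with the block, and ran from 0 to 77 with 1 library left out. For the difference from G2/M cells it was 14 with DESeq2, 102 with the block, 22 with the highest doublet scores removed and 10 without cells high in mature enterocyte markers, and ran from 43 to 143 with 1 library left out. For Dox, 114 genes were past 2-fold with a limit of 15 S UMIs and 22 without cells high in Paneth or Goblet markers. The ratio of means of the early S share stayed under 1 in every setting (0.591-0.871), with 0.687 as the mean within replicates (the block) and 0.537-0.824 with 1 library left out. Within replicate 1 the ratio was 1.02 when measured against early S and G2/M cells together. Without cells high in mature enterocyte markers the differences for Fabp1, Rbp2 and Apoa1 reversed to 0.15, 0.022 and 0.27. For the 3 called genes 28 of the alternative values stayed past the threshold and 14 did not, all in the same direction. The settings without cells high in Paneth, Goblet or enterocyte markers, with doublets removed from the class comparisons and with the shared early S and G2/M denominator were added after the data were seen. Where no value above bears on it, the cause was not tested. With 2 libraries per group, few early S cells per library and no replicate for Dox, changes could be missed, and not only in genes with low counts.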

Other observations

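In the early S cells the regenerative genes, which mark crypts under repair, differed between replicates more than between treatments. Their summed level was 3082 and 4365 CPM in -EIPA, 2927 and 6738 CPM in +EIPA, 2133 CPM in -Dox and 2829 CPM in +Dox. Of 18 tested 0 were called, while 12 were higher and 1 lower with the replicate block, beside 2.57% and 1.53% of all genes. Clu, a marker of revival stem cells, was detected in 0.5-31.8% of the early S cells, depending on the library, against 0.3-31.8% of the G2/M cells.

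Of the Notch receptors and targets, 0 of 11 tested genes were called with EIPA, as the 0.0284% of all genes called would give. Hes1, the target that holds progenitors on the absorptive path, stood at 174 and 135 CPM in -EIPA and 177 and 147 CPM in +EIPA. Of 13 secretory progenitor genes 0 were called, beside the same share, and Dll1, a Notch ligand of secretory progenitors, stood at 11.8 and 13.6 CPM in -EIPA, 10.1 and 10.7 in +EIPA, 8.53 in -Dox and 26.4 in +Dox.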
